A study of Bos taurus with 48 samples.

Results

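The amino acid cysteine can be built into glutathione, the main small-molecule thiol of the cell, or be oxidised and lost from the thiol pool. GCLC (ENSBTAG00000015571) encodes the catalytic subunit of glutamate-cysteine ligase, the rate-limiting step of glutathione synthesis, which joins cysteine to glutamate. GSS (ENSBTAG00000003504) encodes glutathione synthetase, which adds glycine to that dipeptide. CDO1 (ENSBTAG00000017442) encodes cysteine dioxygenase, which oxidises cysteine to cysteine sulfinate, the precursor of taurine, and its transcript is known to be abundant in liver and adipose tissue. These 3 of the 24616 gene rows in the read count files were chosen by name, as the steps at which cysteine enters glutathione or leaves by oxidation, and all 3 passed the filter on low values. The study had listed all 3 as differentially expressed between diets in the same 12-month samples, so the direction of the 12-month energy contrasts is not independent evidence.

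The data were mRNA-seq read counts of subcutaneous adipose tissue taken by biopsy beside the tail base of 24 Norwegian Red heifers, with a first biopsy at 12 months of age and a second at gestation month 7, or 48 samples in all. At 12 months the heifers were on experimental diets that differed in energy (high, HE, or low, LE) and protein (high, HP, or low, LP), with 6 heifers on each of LPHE, LPLE, HPHE and HPLE. Energy was set by the roughage: silage without limit for HE, and for LE a limited amount diluted with straw. Protein was set by both roughage and concentrate. In the paper's intake figures crude protein differed more between HE and LE than between HP and LP diets. Energy and protein intake therefore cannot be told apart in the energy contrasts. In each diet 3 heifers came from the genetic group HMY and 3 from LCM. At the gestation sampling all 24 heifers had left the experimental diets and shared 1 low-energy feed, so the diet names then refer to the earlier feeding. Age, gestation and the change of feed cannot be told apart in the comparison of the samplings, and the sequencing lane is not in the labels.

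Reads assigned to genes ranged from 14815595 to 59809633 per sample at 12 months and from 22430093 to 61027456 in gestation. Over the 48 samples GCLC had 330 to 1692 reads, GSS 397 to 5607 and CDO1 73 to 3013. Levels are given below as CPM, read counts scaled to library size, after TMM scaling, a correction for library composition. CPM is not corrected for transcript length, and levels are therefore compared between samples and not between genes. Of the adipocyte markers looked for, LEP and CIDEC could be matched to an identifier, and both were above 0 in all 48 samples, with medians of 421 and 1640 CPM.

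GCLC, the first step of glutathione synthesis, stood highest in the HE heifers at 12 months. In LPHE heifers the lowest, median and highest levels were 19.8, 37.7 and 47.8 CPM, and in LPLE heifers they were 15.7, 20.6 and 25.1 CPM. The HPHE heifers had 24.7, 32.1 and 38.6 CPM, and the HPLE heifers 22, 23.9 and 26.4 CPM. At each protein level the HE and LE groups overlapped, through LPHE heifer 12 and HPHE heifer 15. In gestation the 4 groups covered one another, with 18.6, 21.8 and 27.5 CPM in LPHE, 17.7, 22.5 and 25.3 CPM in LPLE, 13.1, 21 and 26.1 CPM in HPHE, and 12.4, 23.6 and 27.7 CPM in HPLE.

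GSS, the second step, had the same order of groups at 12 months with a wider range. The lowest, median and highest levels were 33.9, 102 and 158 CPM in LPHE and 28.0, 35.6 and 90.5 CPM in LPLE. They were 39.6, 86.1 and 106 CPM in HPHE and 37.0, 52.0 and 72.1 CPM in HPLE. The LPHE and LPLE groups overlapped through LPHE heifer 12 and LPLE heifer 4, which held 33.9 and 90.5 CPM. In gestation the order was turned, with 18.6, 22.7 and 41.7 CPM in LPHE and 19.4, 20.8 and 29.3 CPM in HPHE. The LPLE heifers then had 22.7, 36.6 and 57.6 CPM, and the HPLE heifers 21.5, 36.9 and 50.8 CPM.

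CDO1, the oxidation step, was lowest in the HE heifers at 12 months. Its coefficient of variation was the highest of the 3 genes in 7 of the 8 groups and the lowest in HPHE at 12 months. The lowest, median and highest levels were 2.06, 7.55 and 14.3 CPM in LPHE and 5.01, 14.6 and 74.1 CPM in LPLE. The value of 74.1 CPM belonged to LPLE heifer 8, and the next highest LPLE heifer had 16.4 CPM. HPHE heifers lay close together at 6.06, 6.58 and 8.31 CPM, and HPLE heifers had 6.46, 10.3 and 15.7 CPM. In gestation the groups covered one another, with 5.05, 14.3 and 32.4 CPM in LPHE, 6.59, 9.49 and 32.2 CPM in LPLE, 9.82, 12.6 and 27.4 CPM in HPHE, and 4.58, 13.1 and 29.1 CPM in HPLE.

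**Figure D1:**
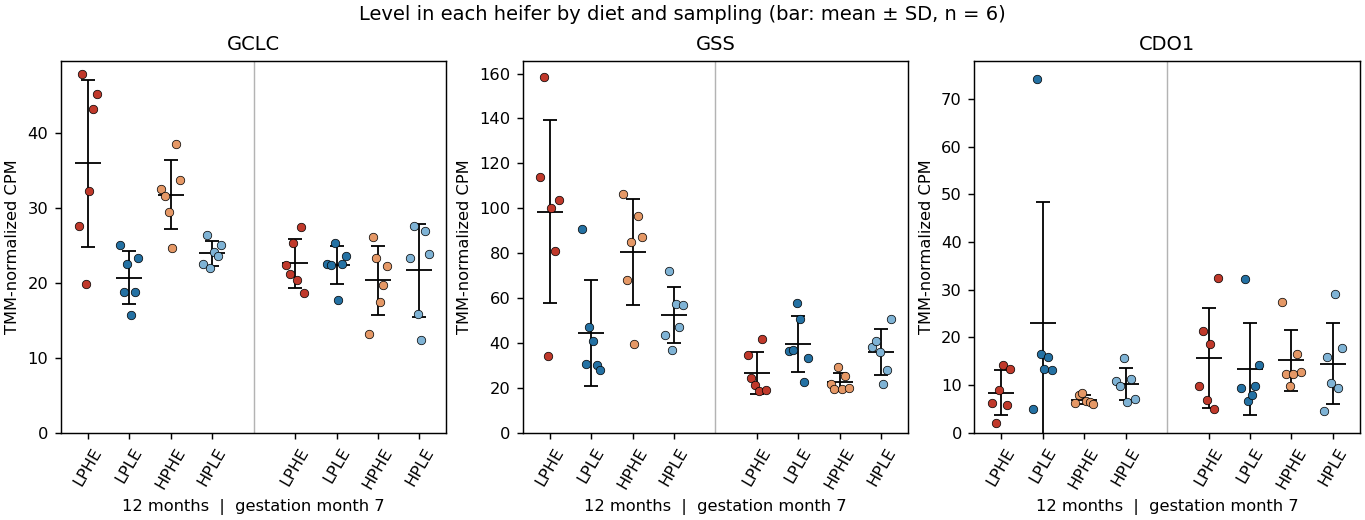
TMM-normalized CPM of GCLC, GSS and CDO1 (y axis) in each heifer, by diet at 12 months and in gestation month 7 (x axis); points are heifers and bars are mean ± SD (n = 6), the lower end of the LPLE bar for CDO1 at 12 months lying below 0. GCLC and GSS are high in LPHE and HPHE at 12 months, and 1 LPLE heifer stands at 74.1 CPM for CDO1.

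Ordered by mean, GCLC ran from 36.0 ± 11.2 CPM (SD, n = 6) in LPHE and 31.8 ± 4.60 CPM in HPHE at 12 months to 20.3 ± 4.60 CPM in HPHE in gestation. HPHE and HPLE at 12 months, the latter with 23.9 ± 1.62 CPM, were the only neighbours in that order whose means lay further apart than the larger of their SDs. GSS ran from 98.5 ± 40.8 CPM in LPHE and 80.4 ± 23.7 CPM in HPHE at 12 months to 22.5 ± 3.94 CPM in HPHE in gestation. Again only the step from HPHE to HPLE at 12 months, at 52.3 ± 12.5 CPM, exceeded the larger SD. CDO1 ran from 23 ± 25.4 CPM in LPLE to 6.94 ± 0.949 CPM in HPHE, both at 12 months, and no pair of neighbours differed by more than the larger SD. The coefficient of variation within a group was 6.77% to 31% for GCLC, 17.5% to 53.3% for GSS and 13.7% to 110% for CDO1.

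The first question was how the 3 transcripts differed between HE and LE diets at 12 months, at low and at high protein. In the LPHE-LPLE contrast GCLC was 1.71-fold higher in LPHE (logFC 0.77, SE 0.188, FDR 0.00514) and GSS was 2.19-fold higher (logFC 1.13, SE 0.299, FDR 0.0108). CDO1 was 2.65-fold lower in LPHE (logFC -1.41, SE 0.434, FDR 0.0349). The tests were edgeR likelihood ratio tests over all expressed genes, and a gene was called at an FDR under 0.1. All 3 genes were called, where 7.08% of the 13339 genes tested were. Without LPLE heifer 8 the CDO1 difference was -0.62 with an FDR of 0.33, without LPHE heifer 5, the lowest in CDO1, it was -1.18 with an FDR of 0.11, and the exact permutation test of the 12 heifers gave p = 0.106.

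In the HPHE-HPLE contrast the 3 differences had the same signs and none was called. GCLC had a logFC of 0.40 (SE 0.186, FDR 0.608), GSS 0.61 (SE 0.295, FDR 0.653) and CDO1 -0.59 (SE 0.428, FDR 0.784), and 0.12% of genes were called in this contrast. Taken singly, with no adjustment over genes, exact permutation tests of the 6 HPHE against the 6 HPLE heifers gave p = 0.00649 for GCLC, p = 0.0455 for GSS and p = 0.0368 for CDO1, with 42 such single-gene tests run in all and 0.00216 the smallest p that 6 against 6 can give. The energy effect at low protein was not shown to differ from that at high protein. The difference of the 2 logFC was 0.37 (95% interval -0.15 to 0.89) for GCLC, 0.52 (-0.31 to 1.35) for GSS and -0.81 (-2 to 0.38) for CDO1, each with an FDR of 1, and 0.105% of genes were called. Without heifer 8 the CDO1 value was -0.061.

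Over both protein levels, HE-LE, all 3 genes passed the FDR threshold of 0.05 used for this contrast, with 7.2% of genes called, in a contrast that shares its samples with the 2 above. GCLC was 1.5-fold higher in HE heifers (logFC 0.59, SE 0.132, FDR 0.000933) and GSS 1.82-fold higher (logFC 0.87, SE 0.207, FDR 0.00219). CDO1 was 2-fold lower (logFC -1, SE 0.303, FDR 0.0213). The GCLC and GSS calls held when any 1 of the 24 heifers was left out. The CDO1 call was lost without heifer 8 (logFC -0.59, FDR 0.116) and without HPLE heifer 9 (logFC -0.90, FDR 0.0594). In bulk tissue, fewer cells of a type and less RNA per cell cannot be told apart. Cell type markers could be matched only through the study's own lists of differentially expressed genes, mainly of LPHE-LPLE at 12 months, so the markers given here were selected on these samples and their direction is not independent evidence. In the same contrast the fibroblast markers COL1A1, COL3A1 and DCN, 3 of 3 matched, were lower in HE heifers, and their summed level ranged from 13500 to 41500 CPM in LPHE, 26500 to 67800 CPM in LPLE, 17400 to 38400 CPM in HPHE and 22500 to 47300 CPM in HPLE. Both adipocyte markers, LEP and CIDEC, were higher in HE heifers, with sums of 2040 to 3360 CPM in LPHE, 887 to 2600 CPM in LPLE, 2140 to 3380 CPM in HPHE and 1270 to 2810 CPM in HPLE. Of 6 muscle markers 4 were lower in HE heifers, with sums of 0.959 to 4.28 CPM in LPHE, 4.13 to 65.4 CPM in LPLE, 0.783 to 132 CPM in HPHE and 1.72 to 123 CPM in HPLE, while over the 48 samples MYH2 was at 0 in 30, MYLPF in 13 and ACTA1 in 4. The 1 epithelial marker matched, DSP, was not called, at 0.162 to 68.8 CPM in the HE groups and 2.12 to 9.36 CPM in the LE groups. The part of these cell type markers in the 3 differences was not tested.

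Between HP and LP diets of 1 energy level none of the 3 genes passed the threshold at 12 months. In HPHE-LPHE, where 0.0225% of genes were called, the logFC was -0.16 (95% interval -0.53 to 0.20) for GCLC, -0.29 (-0.87 to 0.29) for GSS and -0.25 (-1.08 to 0.59) for CDO1. In HPLE-LPLE, with 0.0225% called as well, the logFC was 0.21 (-0.16 to 0.57) for GCLC and 0.23 (-0.35 to 0.81) for GSS. CDO1 had -1.06 (-1.93 to -0.20, FDR 1) in this contrast and -0.33 without heifer 8.

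**Figure D2:**
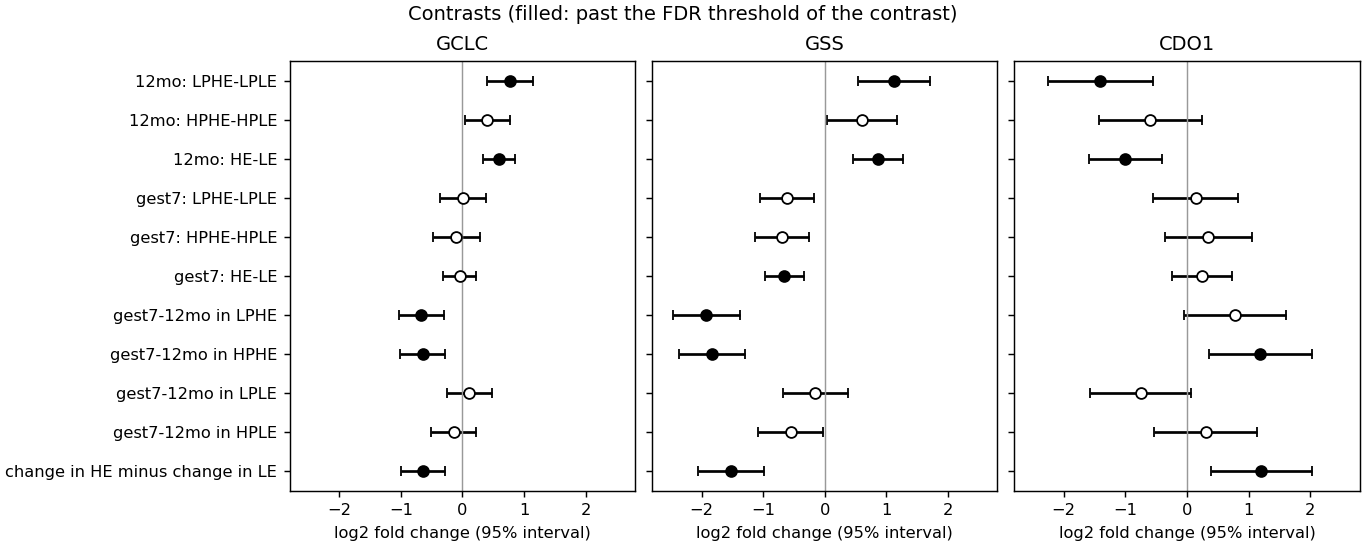
Log2 fold change (x axis) with its 95% interval for GCLC, GSS and CDO1 in the named contrasts (y axis), where 12mo is 12 months and gest7 is gestation month 7; filled points passed the FDR threshold of their contrast. GCLC and GSS lie right of 0 and CDO1 left of 0 in the HE-LE contrast at 12 months (0.59, 0.87 and -1), and in gestation only GSS was called, at -0.65.

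In gestation, when all heifers had the same feed, the heifers reared on HE had less GSS transcript than those reared on LE. The LE heifers were also older at this sampling, and age and earlier diet cannot be told apart in this contrast. GSS was 1.57-fold lower in HE heifers (logFC -0.65, SE 0.16, FDR 0.00338), in a contrast in which 3.74% of genes were called, 356 of 501 of them lower. HE heifers had a median of 21.5 CPM and a range of 18.6 to 41.7 CPM, and LE heifers a median of 36.6 CPM and a range of 21.5 to 57.6 CPM, so that the groups overlapped. The call held when any 1 heifer was left out. GCLC (logFC -0.05, 95% interval -0.31 to 0.22, FDR 0.913) and CDO1 (logFC 0.24, -0.25 to 0.73, FDR 0.699) were not called. None of the 27 matched genes of the cysteine and glutathione lists described below was higher in HE heifers in this contrast, and 11 were lower. The fibroblast, adipocyte, muscle and epithelial markers were not called in it.

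Within a protein level the GSS difference in gestation was not called. The logFC was -0.61 (SE 0.226, FDR 0.259) in LPHE-LPLE, where 1.05% of genes were called, and -0.70 (SE 0.226, FDR 0.167) in HPHE-HPLE, where 0.948% were. The values at low and high protein differed by 0.09 (95% interval -0.54 to 0.71), and 0.00746% of genes were called in that difference. A fit of the 12 HPHE and HPLE samples alone gave GSS a logFC of -0.68 with an FDR of 0.0928. GCLC had logFC of 0.0064 and -0.10 in the 2 contrasts and CDO1 0.14 and 0.35. No member was called in HPHE-LPHE (0.00746% of genes called) or HPLE-LPLE (0.0746%) in gestation, where the logFC lay between -0.23 and 0.28.

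The second question was how each transcript moved in the same heifer between the samplings. GSS fell in all 12 HE heifers, with changes in log2(CPM + 0.5) from -2.69 to -0.66 and a median of -1.85, and 18.8% of expressed genes moved 1 way in all 12. In LE heifers it fell in 8 of 12, with changes from -1.40 to 0.31, and 1.63% of expressed genes moved 1 way in all 12 LE heifers, none of the 3 members among them. GCLC fell in 11 of 12 HE heifers, with changes from -1.27 to 0.35 and LPHE heifer 12 the exception, and in 4 of 12 LE heifers. CDO1 rose in 10 of 12 HE heifers, with changes from -0.35 to 3.09, and in 5 of 12 LE heifers, with changes from -1.26 to 2.09. The largest rise was that of LPHE heifer 5, from 2.06 to 21.3 CPM.

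**Figure D3:**
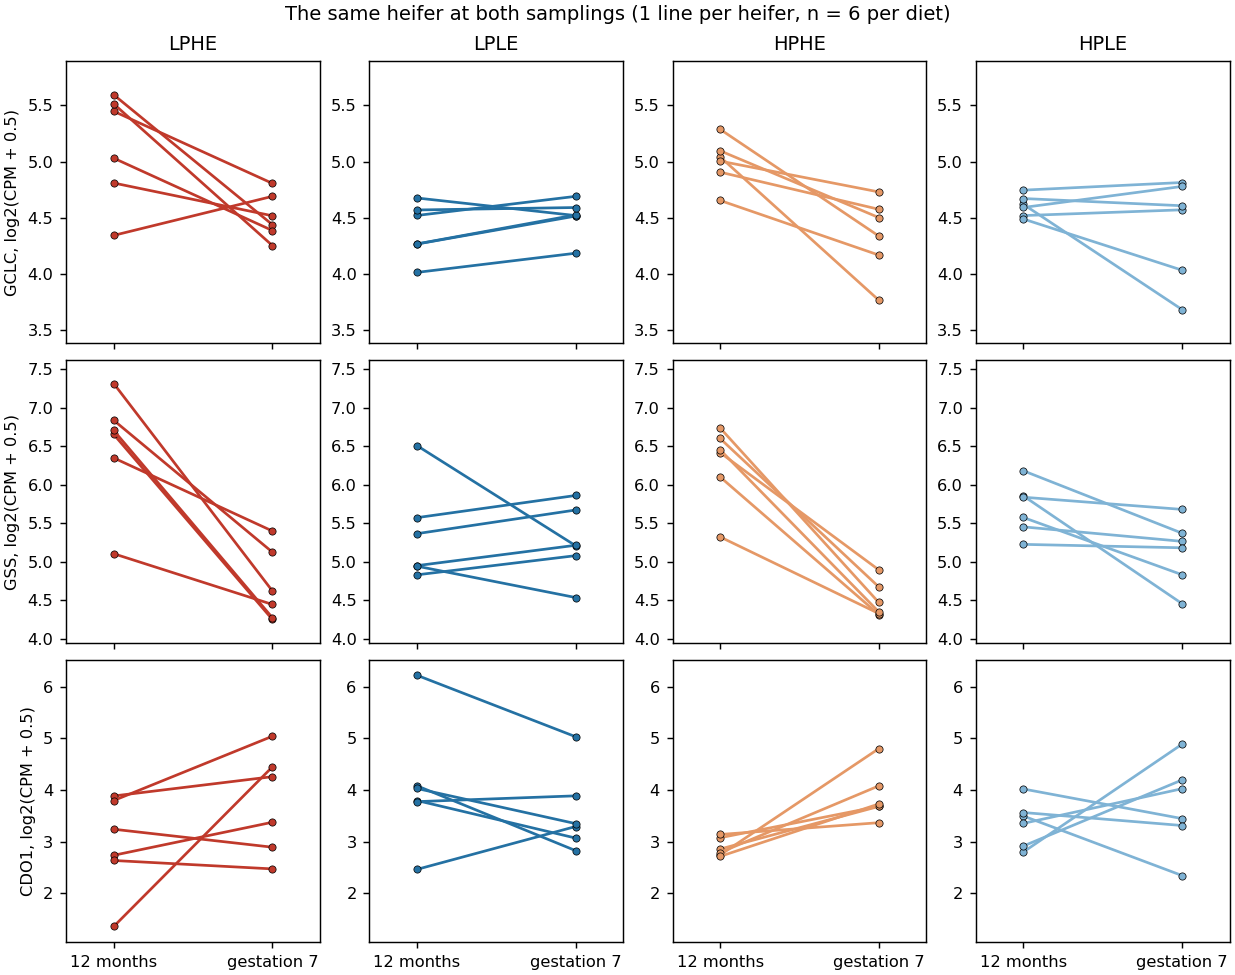
Level on the log2(CPM + 0.5) scale (y axis) of GCLC, GSS and CDO1 in each heifer at 12 months and in gestation month 7 (x axis), 1 line per heifer and 6 heifers per diet. Every line for GSS falls in LPHE and HPHE, and CDO1 rises in every HPHE heifer. The share of all genes that moved 1 way in the 6 heifers of a diet was not computed.

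In the fit of all 48 samples, the mean change of the 4 diets was -0.34 (SE 0.0922, FDR 0.00146) for GCLC and -1.12 (SE 0.136, FDR 2.13e-14) for GSS, while CDO1 with 0.38 (SE 0.21, FDR 0.146) was not called, and 37.4% of genes were. Without heifer 8 the CDO1 change was 0.49 with an FDR of 0.0272. In LPHE heifers (29.8% called) GSS fell 3.78-fold (logFC -1.92, FDR 1.3e-09) and GCLC 1.59-fold (logFC -0.67, FDR 0.003), and CDO1 had a logFC of 0.78 (FDR 0.175, and 0.0792 without heifer 8). In HPHE heifers (32.4% called) GSS fell 3.56-fold (logFC -1.83, FDR 4.18e-09), GCLC fell 1.56-fold (logFC -0.64, FDR 0.00439) and CDO1 rose 2.27-fold (logFC 1.18, FDR 0.0266).

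No member was called in the LE diets. In LPLE heifers, where 0.598% of genes were called, or 82 genes and 493 with the heifer as a block, the logFC was 0.11 for GCLC, -0.16 for GSS and -0.75 for CDO1. In HPLE heifers, where 2.62% were called, or 360 genes and 736 with the block, it was -0.14, -0.55 and 0.30. GSS was lower in gestation in 6 of 6 HPLE heifers, with changes from -1.40 to -0.04. The share of all genes that moved 1 way in these 6 heifers was not computed, so how unusual this is cannot be said. The exact sign-flip permutation test of those 6 changes gave p = 0.0312, the smallest that 6 heifers allow, and the edgeR FDR was 0.418.

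The change between samplings differed between HE and LE heifers in all 3 genes, and this test of the difference itself had 21.3% of genes called. It uses the 12-month samples of the diet contrasts too, on which the 3 genes had been listed. For GCLC and CDO1 the HE-LE contrast in gestation was not called (logFC -0.05 and 0.24). The time between the samplings was longer in LE heifers, and this cannot be told apart from the earlier diet. Relative to LE heifers, GCLC changed by -0.64 (SE 0.184, FDR 0.00749), GSS by -1.52 (SE 0.27, FDR 2.46e-06) and CDO1 by 1.21 (SE 0.419, FDR 0.0325) on the log2 scale. With the heifer as a block the values were -0.61, -1.48 and 1, with FDR of 0.00543, 2.49e-08 and 0.0369. Without heifer 8 CDO1 had 1.02 with an FDR of 0.047, and no single heifer ended any of the 3 calls. Permutation tests between the within-heifer changes of 12 HE and 12 LE heifers gave p = 0.00272 for GCLC, p = 4e-05 for GSS and p = 0.0284 for CDO1, unadjusted. In the same contrast the fibroblast markers, 3 of 3 matched, moved up and both adipocyte markers down in HE relative to LE heifers, 3 of 6 muscle markers moved up, and DSP was not called. These markers had been selected on the 12-month samples that enter this contrast, so their direction in it is not independent evidence either. Their part in the result was not tested.

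At low protein alone the difference in change was -0.78 (FDR 0.0476) for GCLC, -1.76 (FDR 0.000528) for GSS and 1.54 (FDR 0.105) for CDO1, with 9.24% of genes called. With the heifer as a block, which raised the number of called genes from 1267 to 2249, CDO1 had 1.3 and an FDR of 0.0921. At high protein, with 1.3% of genes called, or 178 genes and 684 with the block, only GSS was called (-1.28, FDR 0.0808), with GCLC at -0.50 (FDR 0.417) and CDO1 at 0.88 (FDR 0.571).

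The balance of the 3 transcripts was also read within each sample, as the log2 ratio of their counts, which does not depend on library size. The ratio is not corrected for transcript length, so only its shifts between samples are described, and no test was made. At 12 months the GSS to CDO1 ratio had a median of 3.59 in the 12 HE heifers, with a range of 1.92 to 6.26, and a median of 1.81 in the 12 LE heifers, with a range of -1.28 to 4.17. LPLE heifer 8 held the lowest ratio and LPLE heifer 4 the highest of the LE heifers. In gestation the medians were 0.65 in HE and 1.54 in LE heifers, so the order of the groups was turned. Each of the 12 HE heifers had a lower GSS to CDO1 ratio in gestation than at 12 months, with changes from -6.08 to -0.30, against 5 of 12 LE heifers.

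The GCLC to CDO1 ratio behaved alike at 12 months, with medians of 2.08 in HE and 0.94 in LE heifers, and in gestation the medians were 0.65 and 0.99. It fell in 11 of 12 HE heifers and in 5 of 12 LE heifers. The 2 steps of glutathione synthesis also shifted against each other. The GSS to GCLC ratio had medians of 1.35 in HE and 1.03 in LE heifers at 12 months, and of 0.18 and 0.71 in gestation. It fell in 12 of 12 HE heifers, with changes from -1.77 to -0.31, and in 7 of 12 LE heifers. GSS alone fell in all 12 HE heifers, and the falls of both GSS ratios include that change. No ratio of other genes was computed beside them.

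**Figure D4:**
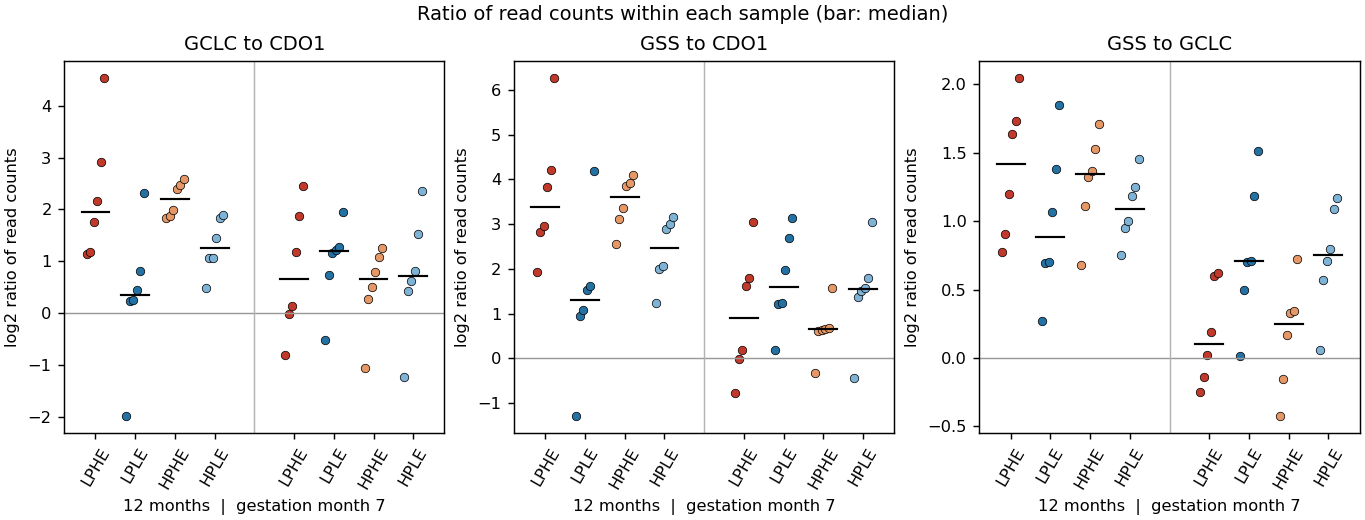
Log2 ratio of read counts within each sample (y axis) for 3 pairs of genes, by diet at 12 months and in gestation month 7 (x axis); points are heifers and bars are medians (n = 6). The GSS to CDO1 medians of LPHE and HPHE, 3.39 and 3.60 at 12 months, are 0.90 and 0.65 in gestation.

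The genetic group, the other term of the model, moved none of the 3 genes past the threshold. At 12 months, with 0.03% of genes called, the HMY-LCM logFC was -0.07 for GCLC, 0.02 for GSS and -0.31 for CDO1. In gestation, with 0.179% called, CDO1 had a logFC of -0.94 (SE 0.261, FDR 0.12), rank 37 of 13403 genes by p, and GCLC and GSS had 0.07 and 0.21. DESeq2 gave CDO1 an adjusted p of 0.0979 in this contrast, and without heifer 8, of LCM, the edgeR logFC was -0.76 with an FDR of 0.452. The 12 HMY heifers had a median of 9.56 CPM, from 4.58 to 27.4 CPM, and the 12 LCM heifers one of 16.8 CPM, from 7.89 to 32.4 CPM. LCM heifers had the higher mean CDO1 in LPHE (24.1 ± 7.30 against 7.28 ± 2.43 CPM, SD, n = 3), LPLE (18.1 ± 12.6 against 8.53 ± 1.69 CPM) and HPLE (20.9 ± 7.16 against 8.14 ± 3.12 CPM). In HPHE the order was the other way, with 12.5 ± 0.247 CPM in LCM and 17.9 ± 8.87 CPM in HMY heifers.

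Whether heifers with more of one transcript also had more of another was read across the 24 heifers of each sampling, on the log2(CPM + 0.5) scale. At 12 months GCLC and GSS rose together, with Pearson r = 0.83 (permutation p = 2e-05, adjusted 0.00036) and Spearman rho = 0.865 (permutation p = 1e-05, the smallest that 100000 resamples give, adjusted 0.00018). With the diet means removed r was 0.683 (permutation p = 0.00028, adjusted 0.00228) and rho 0.58 (permutation p = 0.0033, adjusted 0.0148). These values pool the heifers of all diets, and no r was computed within a single diet. The spread differed between diets, with an SD of log2 GCLC at 12 months of 0.488 in LPHE and 0.0951 in HPLE. Leaving out the 2 heifers farthest from the median of GCLC gave r = 0.782, and 0.447 with the diet means removed. In gestation r was 0.33 (permutation p = 0.116, adjusted 0.173) and rho 0.365 (permutation p = 0.0796, adjusted 0.13). Adjustment was over the 18 relations computed.

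Across the diets, CDO1 ran against both synthesis genes at 12 months. Its r with GSS was -0.643 (permutation p = 0.00038, adjusted 0.00228) and rho -0.618 (permutation p = 0.00144, adjusted 0.00864), and r was -0.563 without the 2 heifers farthest from the median of GSS. Its r with GCLC was -0.569 (permutation p = 0.00345, adjusted 0.0155) and rho -0.642 (permutation p = 0.00091, adjusted 0.00819), and r was -0.573 without 2 heifers. The study had listed GCLC and GSS as higher and CDO1 as lower in LPHE heifers on these samples. The signs of the r across the diets, that of GCLC with GSS included, are therefore not independent evidence. With the diet means removed, CDO1 had r = -0.494 with GSS (permutation p = 0.0169, adjusted 0.0435; rho -0.397, adjusted 0.109) and r = -0.342 with GCLC (permutation p = 0.104, adjusted 0.17; rho -0.417, adjusted 0.0985). Leaving out the 2 heifers farthest from the median of GSS or of GCLC gave r = -0.614 and r = -0.217. In gestation r was -0.505 with GCLC (permutation p = 0.0115, adjusted 0.0382; rho -0.478, adjusted 0.0703) and -0.419 with GSS (permutation p = 0.0425, adjusted 0.085; rho -0.427, adjusted 0.0985). The GCLC value in gestation rested on few heifers, with r = -0.288 once the 2 farthest from the median of GCLC were left out.

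No relation was called between a heifer's levels at the 2 samplings. The correlation between the samplings was r = 0.004 for GCLC, r = -0.259 for GSS and r = 0.10 for CDO1, and with the diet means removed it was 0.056, 0.208 and 0.209. None of these 6 values had an adjusted permutation p below 0.304.

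**Figure D5:**
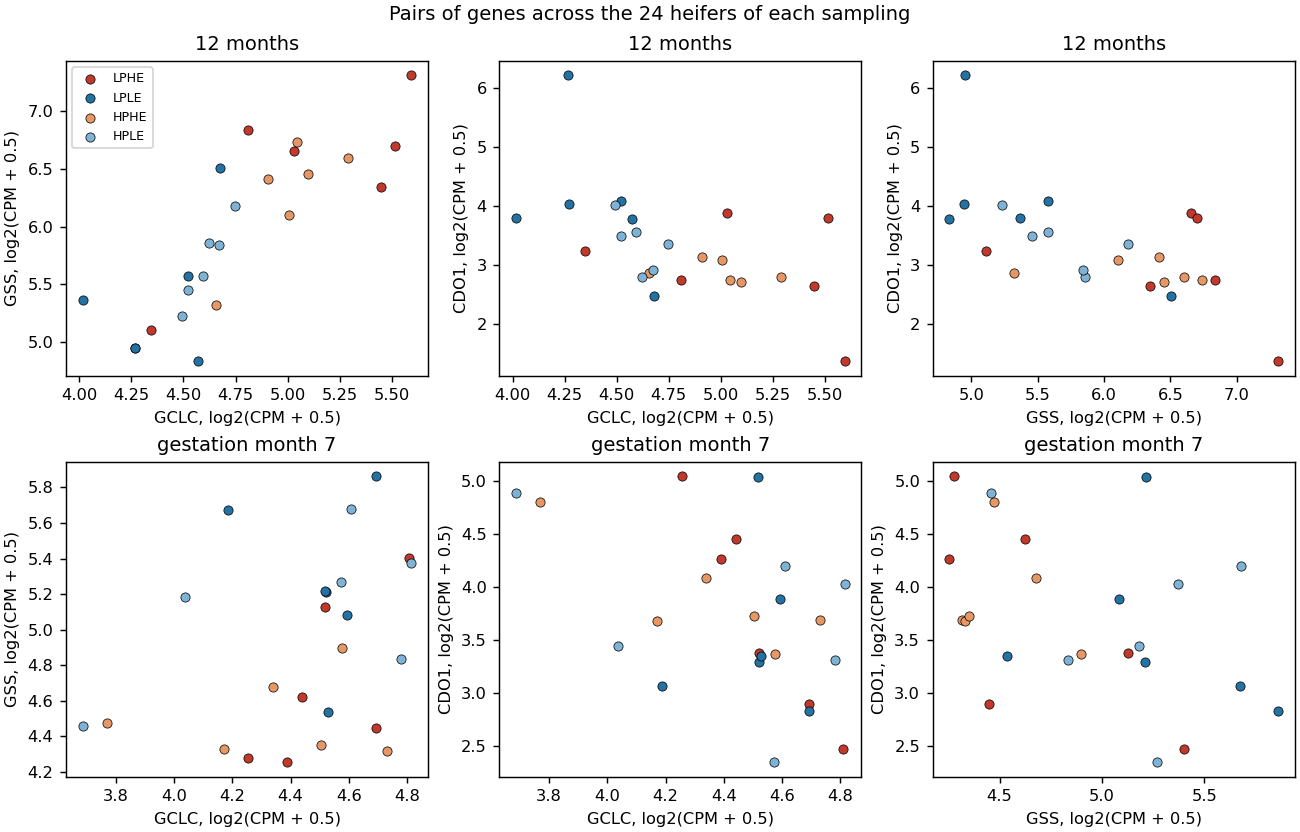
Levels of the 3 pairs of genes on the log2(CPM + 0.5) scale (both axes) in the 24 heifers at 12 months (top) and in gestation month 7 (bottom), coloured by diet. At 12 months GCLC and GSS lie along a rising line (r = 0.83), and CDO1 falls with each of them (r = -0.569 with GCLC and -0.643 with GSS). These r are across the diets, in the samples on which the genes had been listed.

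The expressed genes whose pattern over the 24 heifers of 12 months was most like each member were picked from 13717 by Pearson r on the log2 scale, as a description. For GCLC they were MSI2 (r = 0.914 at 12 months and 0.73 in gestation), ATP6V1D (0.907 and 0.362), CYB5B (0.903 and 0.548), OPA1 (0.902 and 0.476) and CPT2 (0.90 and 0.412). ATP6V1D encodes a subunit of the vacuolar proton pump, OPA1 a mitochondrial fusion protein and CPT2 a carnitine palmitoyltransferase of the mitochondrion. For GSS they were UBE2A (0.96 and 0.849), WBSCR22 (0.951 and 0.877), TIMM23 (0.944 and 0.856), TRAP1 (0.94 and 0.793) and SLC25A3 (0.939 and 0.907), of which TIMM23, TRAP1 and SLC25A3 encode a mitochondrial import channel, a mitochondrial chaperone and the mitochondrial phosphate carrier. For CDO1 they were ENSBTAG00000048058 (0.959 and 0.844), ENSBTAG00000016644 (0.899 and 0.856), GFPT2 (0.866 and 0.58), PCSK6 (0.866 and 0.607) and ENSBTAG00000010206 (0.858 and 0.576). GFPT2 encodes an enzyme at the entry to hexosamine synthesis and PCSK6 a proprotein convertase.

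Other genes that supply, use or spare cysteine and glutathione were read from 5 lists, of whose 101 genes 27 could be matched to an identifier. The identifiers came from the study's own tables of differentially expressed genes, mainly of LPHE-LPLE at 12 months, so the matched genes were selected on these samples and their direction at 12 months is not independent evidence. In HE-LE at 12 months 21 of the 27 were higher, 1 was lower and 5 were not called, with a median logFC of 0.60. Over all 13339 genes tested 625 were higher and 335 lower, or 7.2% called, with a median of -0.03.

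Of the list for glutathione synthesis and cysteine supply, 1 gene of 21 was matched, the leucine aminopeptidase LAP3, which was not called (logFC 0.39, FDR 0.0514). Of the list for cysteine oxidation, taurine and sulfide, 2 of 13 were matched, and both were higher in HE heifers. These were the aspartate aminotransferases GOT1 (logFC 0.44, SE 0.13, FDR 0.0163) and GOT2 (logFC 0.59, SE 0.129, FDR 0.000681), which can take cysteine sulfinate as a substrate but act mainly in the exchange of aspartate and glutamate. They differed in sign from CDO1, the step before them.

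Of the 9 matched genes for glutathione reduction and use, 5 were higher in HE heifers, 1 was lower and 3 were not called. The glutathione transferases GSTM1 (logFC 0.98, SE 0.157, FDR 1.13e-06) and GSTT1 (logFC 0.90, SE 0.173, FDR 6.35e-05) had the smallest p, and reads of glutathione transferase paralogs may be split between near-identical copies. GPX7, a glutathione peroxidase-like protein of the endoplasmic reticulum, was lower (logFC -0.51, SE 0.14, FDR 0.0101), and HAGH, a glyoxalase that releases glutathione, was higher (logFC 0.56, SE 0.167, FDR 0.0184). Of the 5 matched genes for other uses of cysteine 4 were higher, among them the pantothenate kinases PANK3 (logFC 0.92, FDR 0.0218) and PANK1 (logFC 0.80, FDR 0.0405) of coenzyme A synthesis, the iron-sulfur cluster scaffold ISCU (logFC 0.43, FDR 0.0333) and the aminotransferase CCBL2 (logFC 0.38, FDR 0.0411).

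All 10 matched genes of the NRF2 system, the antioxidant response through which GCLC is known to be induced, were higher in HE heifers at 12 months, with logFC from 0.53 to 1.46. Those of small p included PIR (logFC 1.02, SE 0.165, FDR 1.13e-06), the quinone reductase NQO1 (logFC 1.07, SE 0.175, FDR 1.44e-06) and malic enzyme ME1 (logFC 1.46, SE 0.239, FDR 1.44e-06). ME1 also supplies NADPH for fatty acid synthesis.

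From 12 months to gestation 26 of the 27 matched genes fell on average over the diets, with a median logFC of -0.55. Over all 13718 genes 37.4% were called, 2655 of them lower, with a median of -0.0015. PANK3 was not called (logFC -0.46, FDR 0.0747). The change in HE heifers minus that in LE heifers was below 0 and called in 26 of 27, with a median of -1.09, and GPX7 was the exception (0.41, FDR 0.256). Over all genes 1267 were above 0 and 1650 below it, or 21.3% called, with a median of 0.06. Both contrasts subtract the 12-month values on which the matched genes had been selected, mostly as higher in HE heifers, so the selection itself can favour these directions. In the change of HE minus LE heifers GCLC and GSS lay below 0 and CDO1 above it, and these 3 genes had been listed on the same 12-month samples.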

How the data were processed

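Per the labels and the study's methods, the authors made TruSeq v2 libraries, which do not mark strand, trimmed reads with Cutadapt 1.3, aligned them to UMD3.1 with TopHat 2.0.12 and counted reads per gene with HTSeq. The deposited files hold these raw counts for 24616 genes. Without strand, reads of overlapping antisense genes cannot be told apart. The 5 summary rows were left out (on average 24.8% of read pairs at 12 months and 24.6% in gestation overlapped no gene). Over the 120 within-group pairs of samples the chi-square of their counts was at least 38.3 times its degrees of freedom, so all were counted as separate samples.

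Counts were analysed in R 4.3.3 with edgeR 4.0.16: genes reaching 2 CPM in 3 or more samples, TMM factors, trended then tagwise dispersions with a prior of 10 degrees of freedom, glmFit and the likelihood ratio test, with Benjamini-Hochberg FDR over all genes tested. Samples were grouped by their labels. Diet contrasts used the 24 samples of a sampling with diet and genetic group in the model, at FDR 0.1, or 0.05 for HE-LE. Changes between samplings used all 48 samples, 8 groups and the genetic group, at FDR 0.1, or 0.05 for the mean of the diets. Each SE is the logFC over the root of its test statistic, and 95% intervals are 1.96 SE. Both samplings were of the same heifers by label, and deviations from the group means correlated within a heifer with a median r of 0.304 (from -0.0563 to 0.581, above 0.1 in 20 of 24), so the heifer as a block was the main alternative. DESeq2 1.42.0 was another. Permutation tests, two-sided, used SciPy 1.17.1 on log2(CPM + 0.5). The likelihood ratio and quasi-likelihood tests of HE-LE at 12 months were tried on simulated counts with a single dispersion for all genes. The other steps were not tried on simulated data. Genes named outside the 3 members were, per list, those called in HE-LE at 12 months, or the 4 of smallest p, and the 5 genes most like each member by Pearson r. A gene that this rule would name is not reported here. Genes named beyond that rule are the exceptions to a count and were named after their values were seen. The marker lists for endothelial, immune and erythroid cells had no matched gene. The members and lists were chosen with earlier results of these data known. Sequences and coordinates of the members were not used here.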

Additional observations from a re-analysis of the deposited data

Results flagged for a closer look

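Of the 24 groups of 6 heifers, 8 for each gene, 3 had a sample set apart by a gap to its nearest neighbour above Dixon's critical share of the group's range. With normally distributed values chance sets apart about 1 group in 20. The rule was applied to CPM, where high values are drawn out more than on the log2 scale used elsewhere, so that rate need not hold here. They were GSS in LPLE heifer 4 at 12 months (90.5 CPM, a gap of 0.694 of the range), and CDO1 in LPLE heifer 8 at 12 months (74.1 CPM, 0.835) and again in gestation (32.2 CPM, 0.699). The change from 12 months to gestation differed between HE and LE heifers by the test of the difference in GCLC (-0.64 on the log2 scale), GSS (-1.52) and CDO1 (1.21).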

How the results depend on the processing

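No call of GCLC or GSS in HE-LE at 12 months, of GSS in HE-LE in gestation, or of the 3 genes in the change of HE minus that of LE heifers was lost or turned under the settings tried. Over these settings, heifers left out aside, the FDR of GCLC and GSS in HE-LE at 12 months ranged to 0.00996 and 0.0251, and that of CDO1 in the change of HE minus LE heifers from 0.0147 to 0.0759. The quasi-likelihood F test ended the CDO1 call in HE-LE at 12 months (logFC -1.01, FDR 0.0649). DESeq2 gave CDO1 no p in the 12-month contrasts, with a logFC of -1 in HE-LE. The fit of 12 samples alone made GSS in HPHE-HPLE in gestation a call (logFC -0.68). GCLC in LPHE-LPLE in gestation, near 0, turned sign with DESeq2 (-0.0059), RLE factors (-0.0059) and the stricter filter (-0.0057), and without the genetic group so did CDO1 in gestation in HPHE-LPHE (-0.060) and in the difference of the energy effects (0.17). The cause of these was not tested.

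With single heifers left out, CDO1 had logFC of -1.12 to -0.59 in HE-LE and -1.65 to -0.62 in LPHE-LPLE at 12 months, 0.27 to 0.49 in the mean change, and in gestation -0.050 to 0.52 in HPHE-HPLE and -0.090 to 0.46 in LPHE-LPLE. GCLC in gestation had -0.12 to 0.0048 in HE-LE, -0.23 to 0.0048 in HPHE-HPLE and -0.065 to 0.050 in LPHE-LPLE. GSS in gestation had -0.81 to -0.54 in HPHE-HPLE, called without heifer 13, 17 or 18, and -0.76 to -0.51 in LPHE-LPLE, called without heifer 18 or 20. Values near 0 that turned sign were HMY-LCM at 12 months (GCLC -0.11 to 0.0015, GSS -0.13 to 0.14, CDO1 -0.41 to 0.028), HPLE-LPLE in gestation (GCLC -0.15 to 0.062, CDO1 -0.13 to 0.39), HPHE-LPHE in gestation (CDO1 -0.10 to 0.48), the difference of the energy effects in gestation (GCLC -0.018 to 0.22, GSS -0.083 to 0.20, CDO1 -0.41 to 0.17), the change in LPLE (GSS -0.26 to 0.19) and the change in HPLE (CDO1 -0.081 to 0.54).

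The heifer as a replicate block changed no member's call but that of CDO1 in the low-protein difference in change (1.3). Library size without TMM moved the median change of all genes in LPHE heifers to 0.19 and ended the calls of GCLC in the low-protein difference (-0.64, FDR 0.126) and GSS in the high-protein one (-1.19, FDR 0.125). It made calls of CDO1 in the change of LPHE heifers (0.94, FDR 0.0782) and in the low-protein difference (1.69, FDR 0.0659), and the quasi-likelihood F test ended the GSS call in the high-protein difference (-1.28, FDR 0.132). The matched list genes called were 22 of 27 in HE-LE at 12 months, 17 to 27 elsewhere. Over all settings the genes called ranged from 555 to 1615 around 944 in LPHE-LPLE and from 0 to 61 around 16 in HPHE-HPLE at 12 months, and from 0 to 423 around 141 and 0 to 173 around 127 in gestation. Each 0 came from the edgeR quasi-likelihood F test, in which 1165, 1792 and 1216 genes had an unadjusted p under 0.05. For HE-LE they ranged from 905 to 1598 around 960 at 12 months and from 339 to 1151 around 501 in gestation, and for the change of HE minus LE heifers from 2654 to 4771 around 2917. The mean ratio of each group moved by less than its SD when TMM-normalized counts with a pseudocount took the place of the raw counts. The lowest CDO1 count in a sample was 73 reads, and counting error weighs more at such counts.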
